A study of Mus musculus with 5 samples.

Results

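The set holds the 70 protein-coding genes of the mouse, of 21631 on chromosomes 1 to 19 and X, whose symbols place them among the guidance families: Eph receptors and ephrins, semaphorins with plexins and neuropilins, Slit ligands with Robo receptors, and netrins with Unc5 receptors. They were chosen by symbol alone, and every merged region of open chromatin in a gene body or within 100 kb of it was taken. This gave 1683 of the 86713 regions of the series. All 70 genes had at least 1 region, 125 regions fell to more than 1 member, and 610 lay inside the body of a gene outside the set. The families numbered 22 Eph and ephrin genes, 31 semaphorin, plexin and neuropilin genes, 7 Slit and Robo genes and 10 netrin and Unc5 genes.

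Open chromatin was measured by ATAC-seq, in which a transposase inserts adapters into accessible DNA, in 50K cells from the anterior part of both forelimbs of 1 genotyped embryo per library, staged at E11.5 with 40 to 48 somites. The 3 mutants were PrxCre/+;Smarcc1c/c and the 2 controls were Prx+/+;Smarcc1c/c, so both groups carried the conditional allele of Smarcc1 and the controls lacked the Cre. Prx-Cre is active in limb mesenchyme, so ectoderm, vessels, nerves and immigrant muscle precursors of the mutant bud still have the gene. The product of Smarcc1 is BAF155, which belongs to the core of the SWI/SNF remodellers that slide and evict nucleosomes.

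Guidance proteins steer axons, vessels and migrating cells by attraction or repulsion. Ephrins sit in the membrane of 1 cell and bind Eph receptors on its neighbour, so both cells can respond. Class 3 semaphorins are secreted and bind neuropilins, with plexins passing the signal on, whereas most other semaphorins bind plexins directly. Slits repel through Robo receptors, and netrins attract through Dcc and repel through Unc5 receptors. In the limb bud these genes are expressed in mesenchyme as well as in the nerves and vessels that grow in, where they sort cells and set the paths of motor axons. The data are lists of called peaks from bulk tissue, so a region without a peak is one below the caller's threshold, and fewer cells with open chromatin cannot be told apart from less open chromatin per cell.

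Sequences upstream of the start are given for each kind of promoter the members had, because starts with a peak in more libraries had a higher median content of CpG dinucleotides. Peaks were counted here over the window from 250 bases before to 50 after a start. Single starts departed from the medians: Epha8, with 46 CpG, had a peak in that window in mutant 2 and control 1 alone. Each printed sequence is the stretch of 250 bases before a start, read along the gene, from RefSeq on GRCm38.p6 (the mm10 coordinates), with GC boxes (GGGCGG or its reverse complement CCGCCC, both strands searched) in capitals. Efnb2 (minus strand, chr8:8661243-8661492), Slit2 (plus strand, chr5:47982905-47983154) and Unc5c (plus strand, chr3:141465314-141465563) had a peak over the start in all 5 libraries and 27, 25 and 23 CpG in these bases. Epha10 (plus strand, chr4:124881535-124881784, 17 CpG) and the most upstream start of Sema4a (minus strand, chr3:88461183-88461432, 2 CpG) had a peak in that window in both controls and in no mutant. The wider merged region at the start of Epha10 also had a peak in mutant 2 (fold 3.45), outside that window. Ntng2 (minus strand, chr2:29248100-29248349, 4 CpG) had a peak in the window in no library.
Efnb2: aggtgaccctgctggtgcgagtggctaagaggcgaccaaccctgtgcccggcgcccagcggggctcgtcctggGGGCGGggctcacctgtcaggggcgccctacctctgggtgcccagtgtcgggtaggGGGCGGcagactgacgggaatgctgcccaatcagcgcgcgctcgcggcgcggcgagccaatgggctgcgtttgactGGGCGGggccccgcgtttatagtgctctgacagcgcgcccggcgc
Slit2: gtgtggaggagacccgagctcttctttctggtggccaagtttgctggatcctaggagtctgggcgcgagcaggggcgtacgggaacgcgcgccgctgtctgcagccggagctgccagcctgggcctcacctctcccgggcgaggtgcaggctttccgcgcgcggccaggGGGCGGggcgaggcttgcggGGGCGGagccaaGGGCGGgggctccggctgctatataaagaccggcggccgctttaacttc
Unc5c: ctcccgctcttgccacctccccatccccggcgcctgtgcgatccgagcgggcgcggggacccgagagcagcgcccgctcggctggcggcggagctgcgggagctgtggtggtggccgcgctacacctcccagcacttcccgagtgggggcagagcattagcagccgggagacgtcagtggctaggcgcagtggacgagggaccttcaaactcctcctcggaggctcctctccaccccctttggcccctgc
Epha10: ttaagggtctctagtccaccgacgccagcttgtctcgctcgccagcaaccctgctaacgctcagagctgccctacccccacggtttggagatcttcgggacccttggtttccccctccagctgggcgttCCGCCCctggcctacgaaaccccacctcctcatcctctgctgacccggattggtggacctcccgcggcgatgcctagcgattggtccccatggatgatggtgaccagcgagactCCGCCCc
Sema4a: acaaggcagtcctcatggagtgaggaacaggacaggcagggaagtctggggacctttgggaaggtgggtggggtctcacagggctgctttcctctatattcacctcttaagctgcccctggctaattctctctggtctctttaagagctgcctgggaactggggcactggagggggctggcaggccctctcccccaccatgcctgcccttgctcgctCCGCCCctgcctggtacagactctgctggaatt
Ntng2: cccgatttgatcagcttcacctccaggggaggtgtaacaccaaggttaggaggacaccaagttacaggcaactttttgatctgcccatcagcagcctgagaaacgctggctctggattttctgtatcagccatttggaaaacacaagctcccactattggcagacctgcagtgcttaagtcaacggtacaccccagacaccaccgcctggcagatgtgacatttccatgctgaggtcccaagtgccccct

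RefSeq promoter entries, with 77 starts, matched 61 of the 70 genes, all but Efnb3, Ntn1, Plxna1, Plxna4, Sema3b, Sema3f, Sema6a, Slit1 and Unc5d. Counted over the window from 250 bases before to 50 after each start, 53 of the 77 starts (68.8%) overlapped a peak in all 5 libraries, 14 (18.2%) in 1 to 4 and 10 (13.0%) in none. Their median number of CpG in the upstream 250 bases was 18, 12 and 2 in that order. Over all 21045 starts of protein-coding genes the shares were 51.7%, 12.2% and 36.1%, with medians of 18, 8 and 2 CpG. The members' starts thus overlapped a peak in every library more often than starts in general, and their CpG content ran in the same order. A GC box stood upstream of 54 of the 77 starts (70.1%), against 43.0% of all starts. The letters of the GLI motif GACCACCCA, searched on both strands because the series is about GLI repression, were upstream of 0 of the 77 starts and of 0.16% of all starts. A match of letters is not a bound site.

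The 5 lists differed in length, and this bears on every count below. The mutant lists held 36719, 42794 and 27194 peaks on the chromosomes used, against 68959 and 60333 in the controls, while the background level behind the lists (fragments expected per position) was 5.48, 5.09 and 4.95 in mutants and 4.77 and 6.42 in controls. The lowest fold that was called was 2.47, 2.46 and 2.52 in mutants and 2.43 and 2.29 in controls. Fold here is the authors' value for a peak, its height over the background of the same library, and is not scaled between libraries. Of 6 limb mesenchyme markers, 6, 6 and 5 had a peak at the start in mutants 1, 2 and 3 and 6 in each control. Start peaks at markers of other cells were common too, so these counts do not identify the tissue. The mutant 3 list lacked a peak at the start of Tbx5. Start peaks were called at 4, 3 and 2 of 5 ectoderm markers in mutants, against 4 and 4 in controls, and at 0, 0 and 0 of 5 endothelium markers, against 1 and 0. They were called at 3, 3 and 1 of 4 markers of muscle precursors in mutants, against 4 and 4 in controls, and at 3, 3 and 2 of 4 neuron markers, against 4 and 4. For neural crest and glia the counts were 3, 4 and 3 of 4 in mutants and 4 and 3 in controls, and for blood 2 of 4 in every library. The ectoderm, muscle and neuron counts were thus lowest in mutant 3, the shortest list, and the part of such cells in the results was not tested. At Smarcc1 itself the start had a peak in all 5 libraries, which does not check a deletion inside the gene.

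Around the guidance genes fewer regions had a called peak in every mutant than in either control, as over the whole series. A peak was called in 631, 846 and 440 of the 1683 regions in mutants 1, 2 and 3 (37.5%, 50.3% and 26.1%), against 1170 and 1027 in controls 1 and 2 (69.5% and 61.0%). The groups did not overlap. Nor did they over all regions of the series, with 37.4%, 44.8% and 27.3% in mutants, 75.3% and 65.0% in controls and a difference of -33.7 points. The mean share was 38.0% ± 12.1 in mutants and 65.3% ± 6.0 in controls (SD, n = 3 and 2), a difference of -27.3 percentage points with an exact two-sided permutation p = 0.2, the smallest value that 3 against 2 libraries can give. When every list was cut to its 27194 strongest peaks the difference was -2.17 points (exact permutation p = 0.8), so its size depended on the length of the lists.

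Set against all regions of the series, the share at guidance genes stood 0.13, 5.48 and -1.11 points apart in the mutants and -5.76 and -3.98 points apart in the controls. The mean was 1.499 ± 3.5 points in mutants and -4.87 ± 1.26 points in controls (SD, n = 3 and 2), a difference of 6.37 points (exact two-sided permutation p = 0.2). Its direction depended on the regions around the genes: it was -2.76 points over gene bodies alone and -3.94 points over regions whose nearest gene was a member. Without mutant 2 it was 2.74 points.

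Most starts of guidance genes kept a peak in the mutants, and most regions in their bodies had none. At the starts (97 regions within 1 kb, counting both ends of the 9 genes without a strand) 74, 83 and 66 had a peak in mutants, against 84 and 87 in controls. In the bodies (615 regions) the counts were 149, 195 and 74 in mutants (24.2%, 31.7% and 12.03%), against 434 and 337 in controls (70.6% and 54.8%). In the flanks, between genes or inside other genes (693 regions), they were 203, 338 and 116 in mutants, against 419 and 377 in controls. The remaining 278 regions lay at the starts of neighbouring genes, with 205, 230 and 184 in mutants and 233 and 226 in controls. At the starts of guidance genes mutant 2 lay 1 region below control 1, and at the starts of neighbours it lay between the controls. Every mutant lay below both controls in bodies and flanks, and this was so over the series too. Distal regions of the series, over 1 kb from any start, had a peak at 26.8%, 34.8% and 16.2% in mutants and 71.6% and 59.6% in controls. Those near a start had one at 78.4%, 83.8% and 70.3%, against 89.7% and 86.1%.

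**Figure D1:**
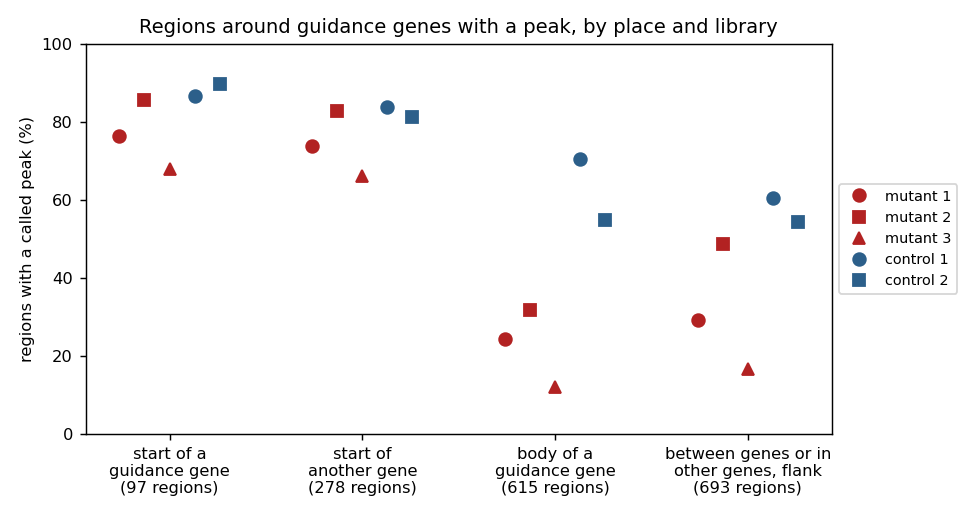
Share of regions with a called peak (vertical axis, %) at 4 kinds of place around the 70 guidance genes, 1 point per library, mutants in red and controls in blue. At starts mutant 2 sits near the controls, and in gene bodies all 3 mutants (12.03% to 31.7%) lie below both controls (54.8% and 70.6%). Distal regions over the series had 16.2% to 34.8% in mutants and 59.6% and 71.6% in controls.

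Both controls shared 822 of the regions, and 231 of them (28.1%, 95% exact binomial interval 25.1 to 31.3) had no peak in any mutant. Over the whole series this was 30.4% of regions, so the guidance genes stood near the background. A peak was present in all 3 mutants at 371 of the 822 (45.1%), in 2 mutants at 126 and in 1 mutant at 94. The commonest partial pattern was a peak in mutants 1 and 2 and none in mutant 3, at 95 regions. Absence from a list is also seen between controls: 29.7% of the regions of control 1 lacked a peak in control 2, and 19.96% the other way. The lost share rests on the libraries used, and was 11.96% (50 of 418) with lists of equal length and 45.2% (543 of 1201) without control 2. The interval covers counting error only, and neighbouring regions are not independent.

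In the other direction, 374 regions had a peak in all 3 mutants, and 0 of these lacked one in both controls, against 0.212% over the series. Mutant 2 had a peak that no other library had at 229 regions (13.6% of the 1683), mutant 1 at 49 and mutant 3 at 13. Over the series the share of regions found in mutant 2 alone was 8.0%. With lists of equal length 17 regions were found in all mutants and no control, and without mutant 3 there were 14.

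Of the 822 regions, 533 were distal, more than 1 kb from the start of any protein-coding gene, and 289 lay near a start. Distal regions were lost at 221 of 533 (41.5%), beside 42.7% over the series. Regions near a start were lost at 10 of 289 (3.46%), beside 4.16%. Counted in each mutant on its own, distal regions were missing more often than those near starts by 45.1, 46.8 and 54.4 points, with a mean of 48.7 ± 4.9 points (SD, n = 3), and over the series by 49.2 ± 4.4 points. The share lost rose with distance from the nearest start, being 3.46% within 1 kb, 19.3% at 1 to 10 kb, 42.1% at 10 to 50 kb, 56.5% at 50 to 100 kb and 57.8% beyond. The series had 26.5% at 1 to 10 kb and 60.7% beyond 100 kb, so the members followed the same course.

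Within the set, bodies and flanks parted. Of the regions in both controls, 129 of 258 in the bodies (50.0%) and 92 of 275 in the flanks (33.5%) were lost. At the rates of regions of equal strength and class over the series, 42.0% and 43.7% would be lost. Distance from the nearest start was not matched in these rates. Strength here is the decile of the mean percentile of fold in the control lists. Weak regions were lost more often than strong ones: 53 of 84 members' regions in the lowest decile (63.1%) were lost, and 0 of 95 and 0 of 80 in the 2 highest. Lost regions had a median fold of 3.99 in control 1 and 3.37 in control 2, and those kept in all 5 libraries 7.63 and 7.01. Even so, 53 of the 231 lost regions had a fold of at least 4 in both controls.

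The A ephrins, held in the membrane by a lipid anchor, lost 11 of 79 regions (13.9%, with 20.2% expected at equal strength and class over the series). The B ephrins, which cross the membrane and signal back into their own cell, lost 8 of 28 (28.6%, with 30.5% expected). Their 95% intervals overlapped (7.16 to 23.5 and 13.2 to 48.7), and single genes crossed the split. Efna1, Efna3 and Efna4 lie side by side on chromosome 3 and share 34 regions, so they are counted largely on the same DNA. Efna1 had 24, 32 and 19 regions in mutants and 30 and 34 in controls, and lost 1 of 24, a flank region of fold 5.20 and 8.08 in controls (chr3:89290895-89291828). Efna2 had 31, 53 and 22 in mutants and 36 and 42 in controls, and lost 3 of 32. Mutant 2 had more regions than either control at Efna2, and mutants 1 and 3 had fewer.

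Efna5, an A ephrin of the limb bud with a body of 278.4 kb, had a higher share lost than Efna1 or Efna2. Of its regions in both controls 12 of 13 were distal, against 9 of 24 at Efna1 and 14 of 32 at Efna2, so these shares cannot be compared directly. Efna5 had 5, 8 and 6 regions in mutants and 23 and 15 in controls, and 6 of 13 were lost. All 6 lay in its body or the flank behind it. Its start kept a peak with a fold of 9.41, 11.004 and 10.3 in mutants and 11.1 and 11.6 in controls. Inside the body a region (chr17:62700490-62701543) kept a peak in every library, with a fold of 4.94, 3.61 and 4.21 in mutants, against 8.84 and 7.28 in controls.

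Efnb2, a B ephrin of arteries and mesenchyme, had among the highest lost shares of the set (chr8:8617235-8661242). It had 2 regions in each mutant, against 12 and 9 in controls, and 6 of its 8 regions in both controls were lost. The 2 that stayed were its own start (fold 11.6, 11.99 and 9.25 in mutants and 15.6 and 10.5 in controls) and the start of a neighbouring gene. The strongest lost region of the whole set lay in its body, 41.2 kb from the start (chr8:8619276-8620015), with a fold of 5.90 and 6.87 in controls. Efnb1, which sorts cells at compartment borders, had 5, 4 and 4 regions in mutants and 8 and 8 in controls, and lost 2 of 7. Efnb3 lost 0 of 13, with 11, 18 and 6 regions in mutants and 16 and 19 in controls.

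EphA receptors, which bind mostly A ephrins, lost 26 of 84 regions (31.0%, expected 33.7%), and EphB receptors, which bind mostly B ephrins, 22 of 60 (36.7%, expected 37.0%). Epha3 had 10, 5 and 7 regions in mutants and 19 and 18 in controls, and 7 of 17 were lost. Epha7 kept its start at a fold of 9.87, 10.3 and 10.3 in mutants and 11.96 and 14.8 in controls, and lost a body region of fold 5.20 and 5.66 (chr4:28866325-28866786). Epha4, the receptor that steers limb motor axons, had only 2 regions in both controls, and both were in every mutant. Ephb2 had 16, 24 and 4 regions in mutants and 38 and 32 in controls, and lost 9 of 22. Ephb3 had 8, 9 and 5 in mutants and 23 and 13 in controls, and lost 6 of 12. A body region of Ephb3 (chr16:21209871-21212032) was among the strongest distal regions kept, with a fold of 8.18, 11.99 and 7.57 in mutants and 10.4 and 13.1 in controls. At Ephb2 and Ephb3 every mutant lay below both controls, as at 52.1% of genes over the series with at least 5 regions in both controls. At Ephb2 mutant 3 had the fewest regions.

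Among the semaphorins the class with the lowest lost share was class 4, membrane proteins that bind plexins, at 10 of 87 regions (11.49%, expected 23.2%), and the class with the highest was class 5, at 11 of 18 (61.1%, expected 40.4%, 95% interval 35.8 to 82.7). Class 6 lost 13 of 44 (29.5%, expected 26.2%). Sema4b lost 0 of 12 and Sema4g 0 of 16. Sema4g had 17, 21 and 12 regions in mutants and 20 and 20 in controls. Sema4a lost 3 of 30, of which 1 in its flank was among the strongest lost regions (chr3:88381875-88382244, fold 6.76 and 5.66 in controls). Sema5a, a transmembrane semaphorin, lost 7 of 10, with 5, 2 and 4 regions in mutants and 18 and 10 in controls. Its body is 451.5 kb long, against 14.7 kb for Sema4g. Of the regions in both controls, 9 of 10 at Sema5a were distal, against 7 of 16 at Sema4g and 3 of 12 at Sema4b. These genes thus cannot be compared directly, and gene length is not matched in the expected shares of the classes.

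The secreted class 3 semaphorins lost 23 of 82 regions (28.0%, expected 25.8%). Sema3e, the ligand of Plxnd1 in vessels, had 1 region in each mutant, its start, and 8 and 5 in controls, and lost 4 of 5. Sema3c had 2, 1 and 3 in mutants and 8 and 8 in controls, and lost 4 of 7. Sema3a, which repels motor and sensory axons that enter the limb, had 5, 3 and 6 in mutants and 13 and 12 in controls, and lost 4 of 10. For all 3 genes every mutant lay below both controls, as at 52.1% of genes over the series with at least 5 regions in both controls. The strongest loss at Sema3a lay 19.8 kb into its body (chr5:13144575-13145222, fold 5.72 and 5.52 in controls). Its start had a fold of 6.79, 8.05 and 6.22 in mutants and 10.1 and 10.6 in controls. Sema3d had 5, 3 and 4 regions in mutants and 11 and 8 in controls, and lost 2 of 6. Sema3b and Sema3f, which share 43 regions in a gene-rich stretch, lost 6 of 34 and 5 of 27. Sema3f had 26, 39 and 19 regions in mutants and 35 and 30 in controls, so mutant 2 lay above both controls there.

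The 2 neuropilins, co-receptors of class 3 semaphorins and of VEGF, lost 14 of 25 regions (56.0%, expected 44.6%, 95% interval 34.9 to 75.6), and the 9 plexins 19 of 84 (22.6%, expected 25.3%). Both expected shares lay within the intervals of the counts. Nrp1 (chr8:128358591-128505476) had 4, 5 and 3 regions in mutants and 16 and 18 in controls, and lost 9 of 13. Of these 9, 4 lay upstream of its start and 4 behind its end. Its start kept a fold of 6.79, 7.23 and 5.38 in mutants, against 9.36 and 7.68 in controls, and a body region 37.2 kb in (chr8:128396268-128397887) kept 7.25, 5.91 and 6.06, against 7.63 and 6.33. Nrp2 had 4, 11 and 2 regions in mutants and 20 and 14 in controls, and lost 5 of 12. Every mutant lay below both controls at both neuropilins, as at 52.1% of genes over the series with at least 5 regions in both controls.

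Plexins had both high and low lost shares, but their regions differed in place. Plxna4, a partner of neuropilins in axons, had 3, 3 and 1 regions in mutants and 15 and 16 in controls, and lost 7 of 10. Plxnb2 and Plxna3 lost 0 of 16 and 0 of 15. Of these regions in both controls, 9 of 10 at Plxna4 were distal, against 4 of 16 at Plxnb2 and 2 of 15 at Plxna3. Over the series distal regions were lost at 42.7% and those near a start at 4.16%, so the genes cannot be compared directly. Plxnb2 had 16, 26 and 14 regions in mutants and 17 and 18 in controls. Plxnd1, the endothelial receptor of Sema3e, had 6, 29 and 5 regions in mutants and 20 and 23 in controls, and lost 2 of 10. At Plxnb2 and Plxnd1 mutant 2 stood above both controls while mutants 1 and 3 stood below. A body region of Plxna1, another partner of neuropilins (chr6:89344368-89346361), was kept with a fold of 6.17, 7.88 and 4.37 in mutants, against 11.6 and 9.30 in controls.

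The 3 Slit genes lost 20 of 49 regions (40.8%, expected 38.2%) and the 4 Robo genes 20 of 59 (33.9%, expected 32.8%). Slit2 (chr5:47981291-48307735) had the same 11 regions in both controls and 4, 2 and 5 of them in mutants. Losses there were 6, of which 2 were among the strongest of the set: a body region 20.7 kb from the start (chr5:48003861-48004479, fold 5.72 and 6.47 in controls) and a flank region inside Kcnip4 (chr5:48402412-48403007, fold 5.90 and 6.47). The start peak of Slit2, over the GC boxes printed above, kept a fold of 7.41, 8.70 and 8.41 in mutants and 11.6 and 9.16 in controls. Slit3 had 20, 22 and 6 regions in mutants and 58 and 39 in controls, and lost 12 of 31. Slit1 had 6, 10 and 3 in mutants and 14 and 12 in controls, and lost 2 of 7. All 3 genes had fewer regions in every mutant than in either control, as had 52.1% of genes over the series with at least 5 regions in both controls.

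Robo1 and Robo2 have the longest bodies of the set, 1020 and 1555.5 kb. Robo1 had 15, 8 and 7 regions in mutants and 46 and 29 in controls, and lost 15 of 28. Of these 13 lay in its body, the strongest 260.1 kb from a start (chr16:72923228-72924034, fold 6.242 and 6.198 in controls). Robo2 had 13, 8 and 10 regions in mutants and 26 and 20 in controls and lost 4 of 18, the strongest in its body (chr16:73964206-73965135, fold 6.42 and 5.52 in controls). It holds 2 of the 10 strongest distal regions kept in all libraries. In the first (chr16:74794974-74796956) the fold was 10.03, 8.21 and 8.24 in mutants and 13.0 and 11.2 in controls, and in the second (chr16:74092780-74094154) it was 5.86, 4.599 and 3.70, against 10.1 and 9.70. Robo3 and Robo4, short genes that share 14 regions, lost 1 of 13 and 1 of 11. Robo4, a receptor of endothelium, had a start peak in control 2 alone, at a fold of 2.69.

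Netrins lost 19 of 72 regions (26.4%, expected 25.5%) and Unc5 receptors 15 of 47 (31.9%, expected 34.1%). Ntn1, the secreted founder of the family, had 5, 14 and 2 regions in mutants and 19 and 14 in controls, and lost 5 of 13, so that mutant 2 equalled control 2. Ntng1, a membrane-anchored netrin of axons, had 7 regions in each mutant and 19 and 17 in controls, and lost 10 of 17. Ntn4, a netrin of basement membranes, lost 3 of 9, with 6, 7 and 5 regions in mutants and 11 and 10 in controls. The strongest of these lay 47.4 kb into its body (chr10:93688460-93689371, fold 5.72 and 6.74 in controls). Ntn5 lost 1 of 18, with 17, 25 and 14 regions in mutants and 23 and 22 in controls. The receptor Unc5c had 14, 6 and 9 regions in mutants and 31 and 29 in controls, and lost 12 of 26. Its start had a fold of 9.10, 12.2 and 7.74 in mutants and 11.4 and 12.7 in controls. The strongest body region kept at Unc5c (chr3:141509277-141510320) had a fold of 6.33, 3.45 and 3.03 in mutants and 10.2 and 8.62 in controls.

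**Figure D2:**
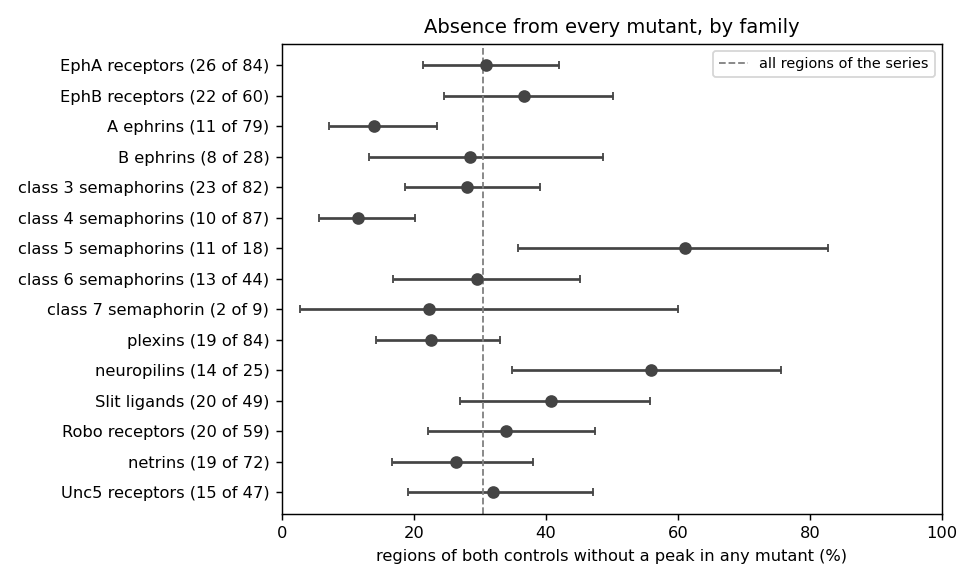
Share of regions of both controls without a peak in any mutant (horizontal axis, %) for each family, with 95% exact binomial intervals that cover counting error only and the share over all regions of the series (30.4%) as a dashed line. The intervals of A ephrins and class 4 semaphorins lie below the line and those of neuropilins and class 5 semaphorins above it, but of these 4 only the interval of class 4 (5.65 to 20.1) leaves out the share expected at equal strength and class (23.2%). The intervals are not corrected for the number of families, and gene length is not matched in the expected share. Guidance genes of at most 30 kb together lost 13.7%, with 23.0% expected.

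Across the genes, 37 of the 64 with at least 5 regions in both controls had fewer regions in every mutant than in either control, beside 52.1% of genes over the series, and 0 had more in every mutant. No region was lost at 9 of the 70 genes, a count for which no share over all genes was taken. Among the 9 were Epha4 and Plxnb3, with only 2 and 3 regions in both controls. Plxna3 and Plxnb2 were also among them, with 13 of 15 and 12 of 16 such regions near a start, where loss was rare over the series. At the starts, 60 of the 70 genes had a peak in all 5 libraries, beside 58.5% of all protein-coding genes. The fold at these 60 starts had a median of 6.79, 7.31 and 5.38 in mutants and 8.84 and 7.68 in controls. A start peak in some libraries was seen at 8 genes and in none at Ntng2 and Plxnb3. Sema4a had a start peak in both controls and no mutant, beside 1.88% of genes over the series. At Epha10 and Robo3 a region at the start had a peak in mutant 2 and both controls, with a fold of 3.45 in mutant 2 and 4.33 and 4.85 in controls at Epha10. At Epha8 no region within 1 kb of the start had a peak in mutant 2 and in both controls, and the peaks there lay in 3 separate regions. Sema3b has no strand in the table, so both of its ends counted: a region at 1 end had a peak in both controls and no mutant (chr9:107608977-107609904, fold 3.81 and 3.50), and a region at the other had one in mutant 2 alone (fold 3.28). Plxna3 had 5.71 and 6.41 in mutants 1 and 2 and no peak in mutant 3, against 6.76 and 7.55 in controls.

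The share lost differed with the length of the gene. The 32 genes with bodies over 100 kb had 198, 196 and 128 regions in mutants and 544 and 440 in controls, and lost 162 of 352 (46.0%). The 30 genes of at most 30 kb had 377, 548 and 273 regions in mutants and 517 and 502 in controls, and lost 55 of 402 (13.7%). The 8 genes between lost 16 of 73 (21.9%). Over the series the shares lost around genes of these lengths were 35.3% for the long, 19.8% for the short and 21.6% for those between, so an order by length was general and its ends lay wider apart at the guidance genes. Over the 64 genes with at least 5 regions in both controls, Spearman's rho was 0.74 between body length and share lost and -0.78 between the number of other genes per 100 kb of window and share lost. These are descriptions over genes whose windows overlap, and length enters the size of the window and the mix of places in it.

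Distal regions taken alone showed the same order. Of distal regions in both controls, 160 of 296 around the long genes (54.1%, 95% interval 48.2 to 59.8) and 47 of 194 around the short ones (24.2%, 18.4 to 30.9) were lost, a difference of 29.8 points. At the rates for equal strength over the series, 42.9% and 42.2% would be lost. These rates are not matched for distance from the nearest start, with which loss over the series rose from 26.5% at 1 to 10 kb to 60.7% beyond 100 kb. Over the series distal regions were lost at 47.0% around long genes and 31.5% around short genes, a smaller gap. The difference was 25.8 to 36.5 points under all 11 alternatives, 29.9 points with lists of equal length among them. The short genes lie in dense stretches, with a median of 9 other genes in their windows, against 1 for the long genes. Length, gene density and distance from the nearest start cannot be told apart here.

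The libraries behaved unlike each other at the short genes. Mutants 1, 2 and 3 kept 37.2%, 30.1% and 22.3% of distal regions of both controls around long genes and 63.4%, 71.1% and 43.8% around short genes. Counting every distal region of the short genes, mutant 2 had a peak in 318 of 529, more than control 1 with 285 or control 2 with 273, whereas mutants 1 and 3 had 173 and 96. Mutant 2 had more regions than mutant 1 at 29 of the 38 genes of at most 100 kb, and at 11 of the 32 longer genes. Between the controls, the share of distal regions of control 1 missing in control 2 was 39.0% at long and 31.9% at short genes, and of control 2 missing in control 1 22.5% and 28.9%. The controls thus gave no one order of long and short genes. The list of mutant 2 was the longest of the mutants but shorter than both control lists (42794 peaks, against 68959 and 60333). The part of list length in these differences was not tested.

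**Figure D3:**
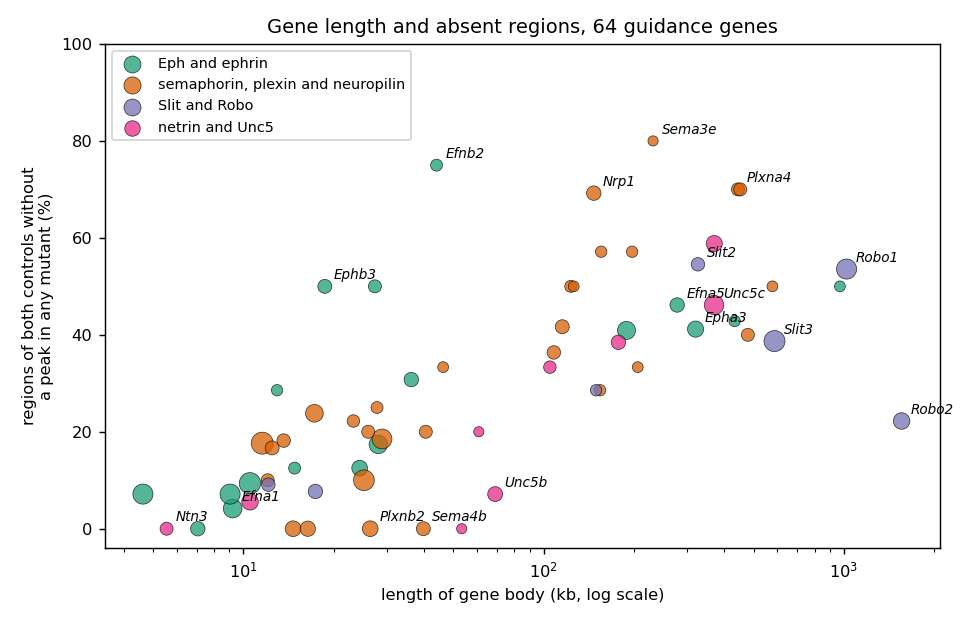
Share of regions of both controls without a peak in any mutant (vertical axis, %) against length of the gene body (horizontal axis, kb, log scale), 1 point per gene for the 64 genes with at least 5 such regions, sized by number of regions and coloured by system. Over all 70 genes the median is 46.2% for bodies over 100 kb and 12.5% for shorter ones, with Efnb2 and Ephb3 as short genes of high loss and Robo2 as the longest gene with a low one.

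**Figure D4:**
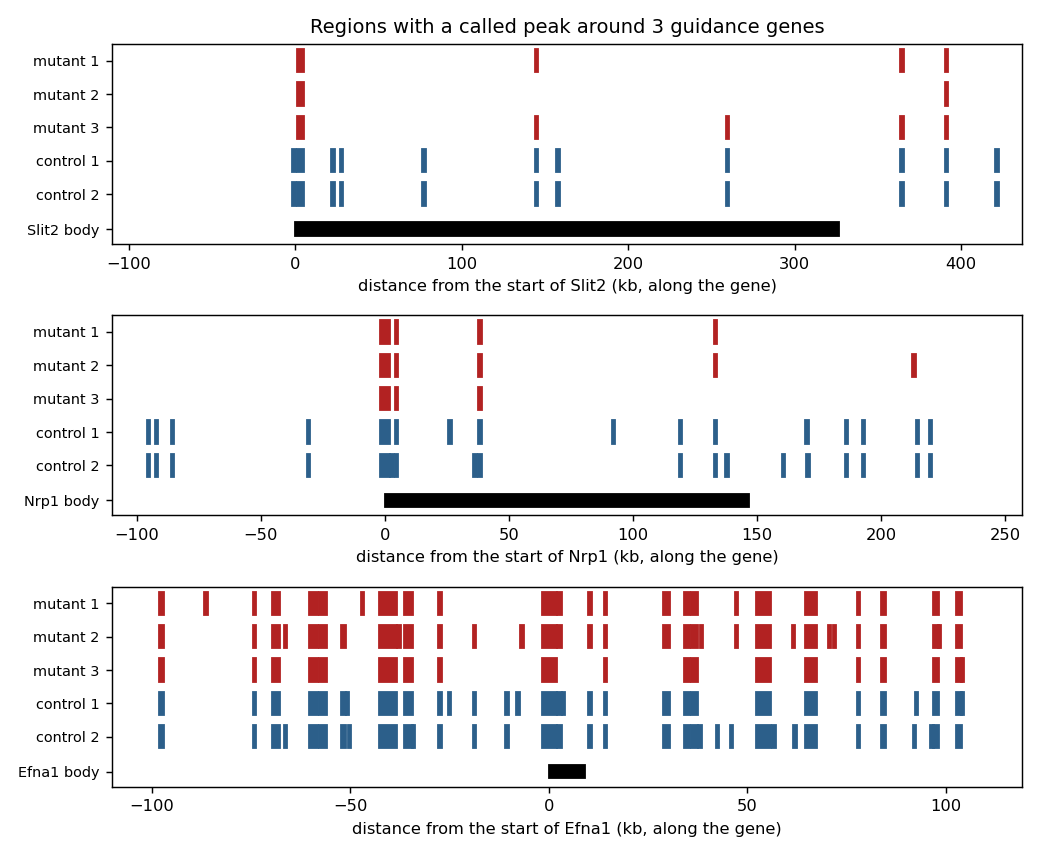
Regions with a called peak (bars, drawn at a minimum width to be visible) in each library along Slit2, Nrp1 and Efna1, against distance from the start (kb, along the gene), with the gene body in black. Slit2 and Nrp1 keep their start peak in every mutant and lose most peaks elsewhere, and Efna1 has 24, 32 and 19 regions in mutants and 30 and 34 in controls.

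**Figure D5:**
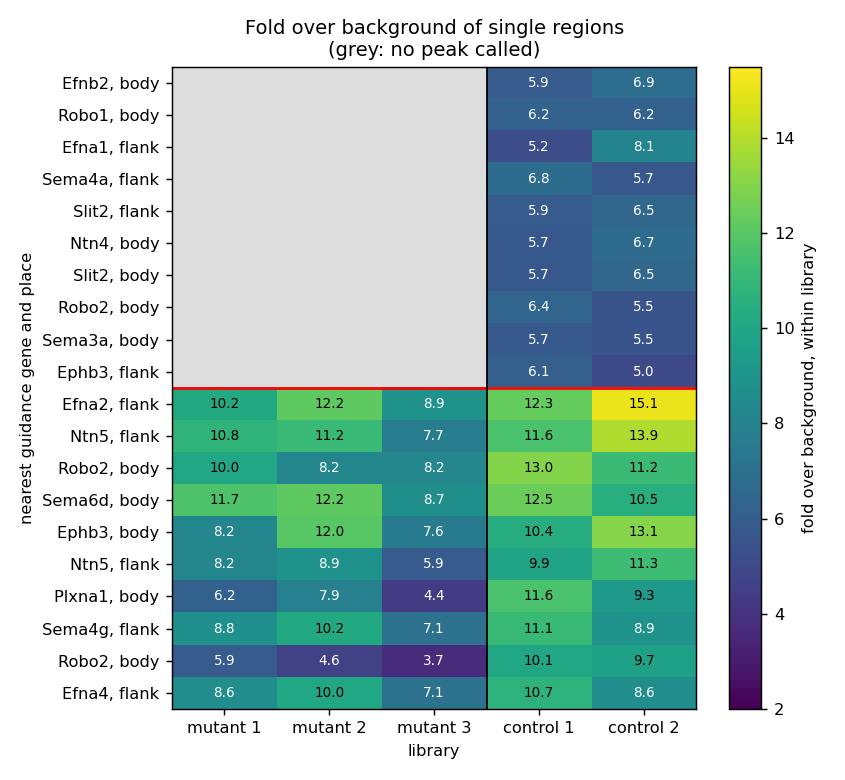
Authors' fold over the background of the same library (colour and number) in each library for the 10 strongest regions lost from every mutant (above the red line) and the 10 strongest distal regions kept in all libraries (below it), with grey where no peak was called. The fold in controls is 4.99 to 8.08 in the lost regions and 8.62 to 15.1 in the kept ones.

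Regions that every library kept were compared by their rank of fold within the library, over the 19579 regions shared by all 5 lists, so that every library ranks the same regions, although the shortest list limits which regions are shared. Of the members' 371 shared regions, 50 ranked lower in every mutant than in both controls (13.5%, beside 11.6% over the series) and 41 ranked higher in every mutant (11.1%, beside 12.8%). In the bodies of guidance genes, where all regions counted are distal, 15 of 49 ranked lower (30.6%) and 4 higher (8.16%). Over distal shared regions of the series these shares were 16.4% and 14.2%. By system, with starts and distal regions counted together, 7 of 29 ranked lower and 0 higher among Slit and Robo genes. The netrin and Unc5 genes had 2 of 54 lower and 5 higher. Eph and ephrin genes had 16 of 110 lower and 10 higher, and the semaphorin, plexin and neuropilin genes 25 of 178 lower and 26 higher. No series share with the same mix of places was taken for these. A body region of Robo1 (chr16:73007255-73007995) had a fold of 4.01, 3.78 and 4.04 in mutants and 9.19 and 7.41 in controls. A region near Ntng1 (chr3:109731840-109733203) had 4.94, 4.27 and 4.21 in mutants and 10.1 and 8.35 in controls. In the other direction, a region in the body of Sema3b (chr9:107601762-107602875) had 5.71, 6.08 and 4.71 in mutants and 5.20 and 4.85 in controls. These regions were chosen for their ranks, so their folds are descriptions. The share ranked lower was 27.1% without control 1, 26.1% without control 2 and 20.7% without mutant 2, and 12.9% (40 of 310) with lists of equal length.

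A separate list of 46 genes held co-receptors, adhesion partners and cytoplasmic effectors, and also Unc5cl (no Unc5 receptor), Plxdc1 and Plxdc2. These 46 genes had 392, 498 and 247 regions in mutants and 818 and 711 in controls. They lost 172 of 539 regions (31.9%), beside 30.4% over the series, with 0 found in all mutants and no control. Of the 44 with at least 5 regions in both controls, 32 had fewer regions in every mutant than in either control, beside 52.1% of genes over the series. Fyn, a kinase of Src type that acts below netrin and semaphorin receptors, lost 14 of 19, with 6, 6 and 2 regions in mutants and 32 and 24 in controls. Farp1, an exchange factor that acts with plexins, lost 10 of 25, and Srgap1, a GTPase activator bound by Robo, lost 9 of 18. Vav2, an exchange factor recruited by Eph receptors, lost 9 of 20. Among those with most regions kept in all mutants were the netrin antagonist Draxin, with 12 kept and 4 lost of 22, and the small GTPases Rnd1, with 11 kept and 0 lost of 17, and Rras, with 11 kept and 1 lost of 16. Dcc, the attractive netrin receptor, had 2, 2 and 0 regions in mutants and 7 and 7 in controls.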

How the data were processed

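The authors used bcl2fastq 2.20.0, Bowtie2 2.3.5, MACS2 and build mm10, per the submitters' processing notes. For MACS2 version and options, duplicate removal and the shift of reads for the transposase cut, nothing is stated in the labels. The authors deposited 1 peak list per embryo, not pooled, with positions and summits (other values, in bp), a fold ratio over the library's own background, and −log10 p-values and −log10 q-values. Retained duplicates or a missing shift would alter heights and peak borders. Read numbers are unknown; background levels were recovered from the even grid of the deposited fold values.

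Peaks on chromosomes 1 to 19 and X were merged where they shared at least 1 bp. Genes and promoters came from RefSeq (GRCm38.p6), 21631 protein-coding genes. A region within 1 kb of a gene start (of either end where the strand was not given) was start-proximal, and others distal. Lost means a peak in both controls and in no mutant. Expected shares apply the rate of each strength decile and class (start-proximal or distal) over all regions, and distance beyond that class is not matched. Library values were compared by an exact two-sided permutation test that doubles the smaller tail, with a smallest p of 0.2. Unc5cl, named like the Unc5 genes but no receptor of that family, was left out of the members and added in an alternative. It was kept among the 46 other genes. Other pathway genes named are those with most regions lost or kept, and Dcc, which was named outside that rule. Named members are, per system, the 3 with most regions, the 5 highest and 5 lowest shares lost, a list of limb members, those nearest the 10 strongest lost and the 10 strongest kept distal regions, and those whose start lacked a peak in a library. Members, lists and rules were chosen with earlier results of these data known. Replicates are separately genotyped embryos. Python 3.11.15 with numpy 2.4.6, pandas 2.3.3 and scipy 1.17.1 was used, and the counting was tested on simulated data. The alternatives tried are in the closing section.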

Additional observations from a re-analysis of the deposited data

How the results depend on the processing

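The difference in share of regions with a peak (-27.3 points) kept its direction under all 14 alternatives, from -2.17 points with lists of equal length to -38.2 without mutant 2. The share at guidance genes minus that of all regions (6.37 points) turned to -2.76 over gene bodies alone and -3.94 where the nearest gene had to be a member, and was 2.74 to 8.60 with 1 library left out. Lost regions (28.1%) came to 39.6% over gene bodies alone, 40.4% by nearest gene, 11.96% with lists of equal length and 20.5% at −log10 q of at least 10, and to 29% to 45.2% with 1 library left out. Regions found only in mutants (0) numbered 17 with lists of equal length and 1 to 14 with 1 library left out. The excess of distal over start-proximal loss per mutant (48.7 points) was 57.1 over gene bodies, 39.5 with lists of equal length and 45.8 to 54.5 with 1 library left out. Shared regions ranked lower (13.5%) came to 18.4% over gene bodies, 20.1% by nearest gene and 18.2% to 27.1% with 1 library left out. Leaving out a library relaxes the rules for lost, mutant-only and lower-ranked regions by construction; other causes were not tested. Long minus short genes (29.8 points), and its alternatives, were chosen after seeing the data and stayed between 25.8 and 36.5. No paired analysis was possible because the labels give no replicate numbers, and those used here only follow the order of the samples. With 3 and 2 libraries, the smallest p of the exact permutation test with a doubled tail is 0.2. A region under the called fold of 2.29 to 2.52 is not measured.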
